A study of Mus musculus with 2 samples.

Results

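Fibro-adipogenic fibroblasts of gastrocnemius muscle were taken from 1 single-cell RNA library and chosen by their own transcript counts. A kept barcode had at least 200 detected genes and at most 10% of its UMIs, the counted RNA molecules, from mitochondrial genes. A member had at least 5 UMIs of Dcn, Gsn and Col3a1 together, at least 1 of Pdgfra, and none of Ptprc, Cdh5 or Kdr. Of 2243 kept muscle barcodes 151 were members (6.73%, exact 95% interval 5.73 to 7.85), out of 14028 barcodes deposited for muscle and lung. Within the members, 39 barcodes with at least 1 UMI of Pi16 or Dpp4 were set against 112 without either, and all members against the other 2092 kept muscle barcodes. The labels call both libraries CD45+ cells, picked with magnetic beads. They give TB mice as the source and CAC mouse model as the genotype, with no treatment, age or number of mice. The labels mark no control group without the model. Although both samples are labelled CD45+, the members held no Ptprc, the gene of CD45, by the rule. There was 1 library per tissue, so no test between samples was possible, and every interval covers counting error only.

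Fibro-adipogenic progenitors are interstitial mesenchymal cells of skeletal muscle that carry the PDGF receptor alpha. They lay down the collagen and proteoglycan matrix around the fibres, secrete factors that act on muscle stem cells and leukocytes, and can give rise to adipocytes and matrix-producing fibroblasts. Pi16 and Dpp4 are known in mouse as marks of fibroblasts in the adventitia and fascia, while Col15a1, Cxcl14 and Hsd11b1 belong to fibroblasts lying among the fibres.

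The counts that chose the members were far from the limits in most barcodes. The sum of Dcn, Gsn and Col3a1 ran from 5 to 873 UMIs with a median of 237, and Pdgfra reached 14 UMIs with a median of 3. Just inside the limit lay 9 members with a sum of 5 to 9, and just outside it 6 barcodes with a sum of 1 to 4 that met every other term. A further 105 barcodes met all terms but held no Pdgfra, and 38 members held a single Pdgfra UMI. Another 17 barcodes met all terms but held a Cdh5 or Kdr UMI. Both sets stayed among the other kept barcodes, so levels given for the rest include them. Levels are given as CPM, a gene's counts summed over barcodes per 1000000 UMIs of the same barcodes. Pdgfra stood at 559 CPM (511 to 611) in members and 7.82 CPM (6.05 to 9.95) in the other kept barcodes. The proteoglycan Dcn stood at 18482 CPM (18200.0 to 18766) in members against 1040.0 CPM (1018 to 1062) in the rest, and the actin-severing protein Gsn at 22019 CPM (21712 to 22330.0) against 707 CPM (689 to 725). Lum, a marker the rule did not use and a proteoglycan of collagen fibrils, stood at 674 CPM (621 to 730.4) in members and 13.7 CPM (11.4 to 16.5) in the rest. A Dcn UMI was found in 97.4% of members, against 7.84% of 842 barcodes of an endothelial class, whose median depth was 3208 UMIs against 4899 in members. That class held at least 2 UMIs of Cdh5 and Kdr, and a leukocyte class of 277 barcodes at least 1 of Ptprc. Mural (161), Schwann (71) and satellite (60) classes were set by 2 or 3 UMIs of their own markers. A Dcn UMI was found in 41.7% of the satellite, 14.1% of the Schwann, 8.07% of the mural and 6.86% of the leukocyte class. Since Dcn helped choose the members, its share in them follows in part from the rule.

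**Figure D1:**
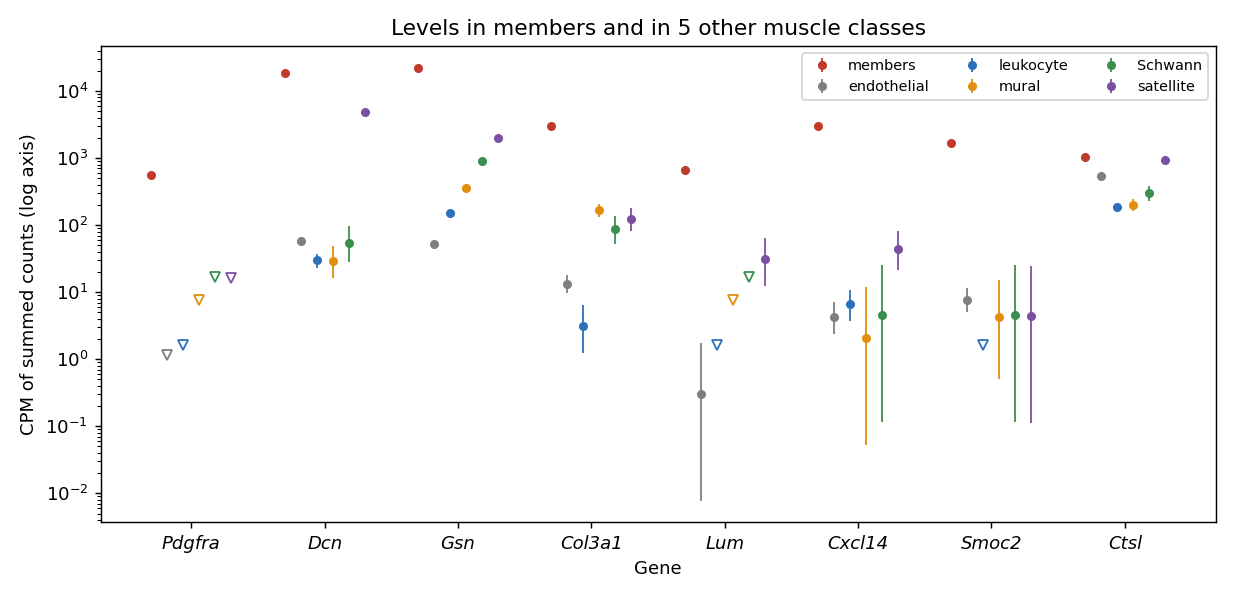
CPM of summed counts on a log axis for 8 genes in members and in 5 other classes of kept muscle barcodes. Bars are exact 95% Poisson intervals and open triangles mark the upper bound where no UMI was counted. Members stood highest for each of these genes, while the satellite class came close to them for Ctsl; Pdgfra is absent from the other classes by construction.

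Markers of other cell types were low in the members. The summed level of 9 endothelial markers was 78.8 CPM in members and 3931 CPM in the rest, and that of 10 leukocyte markers 52.9 CPM against 14872 CPM. Cdh5 and Kdr on the first list and Ptprc on the second were at 0 in members by the rule. The 9 mural markers summed to 75.4 CPM against 1259 CPM, and the 12 myofibre markers to 303 CPM against 1518 CPM. All 5 adipocyte markers, Adipoq and Plin1 among them, were at 0 in the members. Tendon cell markers summed to 1422 CPM in members and 631 CPM in the rest. Without Thbs4, a matrix glycoprotein of tendon, the sums were 155 CPM and 327 CPM, and of 9 markers none passed upward and 1 downward under the rule given next. The members carried 888452 UMIs with a median of 4899 per barcode, against 3023.5 in the rest. Median mitochondrial shares were 3.60% in members and 5.18% in the rest. The libraries shared 64 barcode names, 2 of them members. The rule met 8 of 8194 kept lung barcodes.

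Against all other kept muscle barcodes, 386 of 15355 measured genes were higher in members (2.51%) and 1124 lower (7.32%). These passed a rule of size: a ratio of at least 4, an interval excluding 2, at least 30 counts and 10 positive barcodes on the higher side, and no barcode with over 20% of the counts. This contrast follows from how members were chosen and is given as description. Besides Pdgfra, the highest ratios included Gdf10, a BMP-family ligand, at 43.9 CPM (31.2 to 60.0) in members and 0.237 CPM (0.0287 to 0.856) in the rest. Osr1, a transcription factor of limb mesenchyme, stood at 108 CPM (87.5 to 132) in members and 1.42 CPM (0.734 to 2.48) in the rest. The chemokine Cxcl14 stood at 3007 CPM (2895 to 3124) in members and 52.9 CPM (48.1 to 58.1) in the rest, and the matrix protein Smoc2 at 1677 CPM (1593 to 1764) against 35.5 CPM (31.6 to 39.8). The lowest ratios belonged to leukocyte genes such as H2-Ab1 and S100a8, each with 1 count in the members.

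The matrix program of the members was broad. Of 9 fibrillar and fibril-associated collagens 6 passed the rule, Col1a2 with 2401 CPM (2300.0 to 2505) in members and 134 CPM (127 to 142) in the rest. Among the 6 was Col3a1, which helped choose the members. Col1a1 had a higher level, 3374 CPM (3255 to 3497) in members against 151 CPM (143 to 159), but 1 barcode held over 20% of its counts. Levels of these collagens were uneven over the members. The 9 genes summed to 35816 CPM in 17 members, cluster 6 below, and to 3183 to 5552 CPM in the other clusters. Their sum in the rest was 585 CPM. All 4 measured collagen VI chains passed, and Col6a3 stood at 849 CPM (789 to 911) against 51.8 CPM (47.0 to 56.8). Among 14 basement membrane genes 6 passed, with the laminin chain Lama2 at 1570.2 CPM (1489 to 1655) against 150.3 CPM (142 to 159). The linker Nid1 followed with 1181 CPM (1110.3 to 1254) in members and 127 CPM (119 to 135) in the rest. Of 13 elastic fibre and microfibril genes 6 passed, Fbn1, the main microfibril protein, with 994 CPM (929 to 1062) against 72.4 CPM (66.7 to 78.3).

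Secreted regulators were also high. Of 11 complement genes 6 passed the rule upward, led in level by Serping1, the C1 inhibitor, which had the same 2672 counts as Cxcl14, with 3007 CPM (2895 to 3124) in members and 186 CPM (177 to 196) in the rest. The central component C3 stood at 954 CPM (891 to 1021) against 37.5 CPM (33.5 to 41.9), whereas Clu passed downward with 12.4 CPM (6.18 to 22.2) against 209 CPM (199 to 219). Among metalloproteinases and their Timp inhibitors 7 of 14 measured genes passed upward and 3 downward, Mmp2, a collagen-cleaving gelatinase, with 1204 CPM (1133 to 1279) against 99.4 CPM (92.8 to 106). Igf1, a growth factor for muscle, stood at 275 CPM (241 to 311) in members and 27.1 CPM (23.7 to 30.9) in the rest. Follistatin (Fst), which binds activins and myostatin, stood at 133 CPM (109.9 to 159) against 4.03 CPM (2.79 to 5.63). Of 20 measured cachexia-linked ligands, receptors and inhibitors only Fst and its relative Fstl1 passed, with Fstl1 at 1023 CPM (958 to 1092) against 78.5 CPM (72.7 to 84.7). Il6 did not pass and stood at 45.0 CPM (32.2 to 61.3) in members and 105 CPM (98.0 to 112) in the rest, Mstn had no count, and Gdf15 had 2 counts.

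Ctsl, which encodes the lysosomal protease cathepsin L named in the title of the series, stood at 1045 CPM (978 to 1114) in members and 389 CPM (376 to 403) in the rest. Its ratio of 2.68 (2.49 to 2.89) was below the size of 4. By class the order was members, the satellite class at 947 CPM (825 to 1082), the endothelial class at 543 CPM (518 to 569), the Schwann class at 297 CPM (229 to 379), the mural class at 200.2 CPM (162 to 245) and the leukocyte class at 183 CPM (166 to 202). Intervals of members and the satellite class overlapped, as did those of the mural class with both the Schwann and the leukocyte class. Median shares of ribosomal protein transcripts were 7.78% in members, 0.686% in the mural and 3.31% in the Schwann class. Among barcodes where that share was at least 2%, Ctsl stood at 1253 CPM (1171 to 1338) in members, 1087 CPM (946 to 1244) in the satellite and 655 CPM (624 to 687) in the endothelial class. It stood at 428 CPM (320.2 to 559) in the Schwann, 381 CPM (302 to 473) in the mural and 188 CPM (169 to 208) in the leukocyte class. This limit was chosen after the values were seen. The 8 lung barcodes that met the rule stood at 810.2 CPM (683 to 954). Per member, Ctsl ran from 0 to 6145 CPM with a median of 773, and 121 of 151 members (80.1%, 72.9 to 86.2) held a UMI. After thinning to 1000 UMIs the share with a Ctsl UMI was 53.0% in members, against 32.4% in the endothelial and 11.2% in the leukocyte class. Of the other cathepsins only Ctsf passed upward, with 82.2 CPM (64.4 to 103) against 18.6 CPM (15.8 to 21.7). Ctsk, known for cleaving collagen, had 251 CPM (219 to 286) against 17.3 CPM (14.6 to 20.3) and failed on the share of counts in 1 barcode. The cathepsin inhibitor cystatin C (Cst3) stood at 4229 CPM (4095 to 4366) in members and 2668 CPM (2633 to 2703) in the rest. Cd274, which encodes the checkpoint ligand PD-L1, had 4 counts in members, 4.50 CPM (1.23 to 11.5), against 34.2 CPM (30.4 to 38.4) in the rest.

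Pi16 or Dpp4 was detected in 39 of 151 members (25.8%, 19.1 to 33.6). Pi16 was in 33 of them, Dpp4 in 24 and both in 18. Of these barcodes 8 held exactly 1 UMI of the pair and 19 held 10 or more, up to 89. The share was 0.594% in the endothelial class and 26.0% in the leukocyte class, whose median depth was 7449 UMIs. After thinning to 1000 UMIs it was 15.9% in members, 0.119% in the endothelial and 4.69% in the leukocyte class. By level, Pi16 stood at 684 CPM (631 to 741) in members, against 24.8 CPM (18.7 to 32.2) in the leukocyte class and 1.23 CPM (0.336 to 3.16) in the endothelial class. Dpp4 stood at 110.3 CPM (89.6 to 134) in members, against 32.3 CPM (25.4 to 40.7) and 0.308 CPM (0.00781 to 1.72). Members with the pair were deeper, with a median of 6899 UMIs against 4521.5. Among members with at least 2000 UMIs, the list medians described below were 1.74 for adventitial genes, the pair left out, and -1.46 for parenchymal genes. That limit kept 143 of 151 members and 38 of 39 with the pair. It removed few barcodes, so these medians cannot show the part of depth, which was not tested.

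Between members with and without the pair, 93 of 8796 measured genes were higher (1.06%) and 346 lower (3.93%), at a ratio of at least 2 with an interval excluding 1 and the other terms as above. The median log2 ratio of all measured genes was -0.13. Unless size factors are named, ratios and calls were taken against a ratio of 1 and not against this median. Of the calls 21.2% were higher, and with median-of-ratios size factors 31.5%, 126 genes higher and 274 lower. With at least 100 counts on the higher side 32 were higher and 100 lower. The split itself used Pi16 and Dpp4, and no member without them held a count of either.

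Genes of adventitial progenitors were higher in members with Pi16 or Dpp4. Leaving out the pair itself, all 20 measured genes of that list had a ratio above 1 and 7 passed the rule, 6 of them with at least 100 counts, with a median log2 ratio of 1.76. That list and the parenchymal list below were chosen with earlier results of these data known, so their direction is no separate evidence. Anxa3, a phospholipid-binding annexin, was found in 28 of 39 members with the pair and 24 of 112 without, at 594 CPM (512 to 685) and 77.0 CPM (55.9 to 103), a ratio of 7.71 (5.53 to 11). Ackr3, a scavenging receptor for Cxcl12, stood at 527 CPM (450.4 to 614) with the pair and 114 CPM (87.7 to 145) without. Ugdh, which makes the sugar precursor of hyaluronan, stood at 701 CPM (612 to 799.5) against 178 CPM (145 to 217), and Procr, the protein C receptor, at 663 CPM (576 to 759) against 187 CPM (153 to 226). Clec3b passed narrowly at 3075 CPM (2885 to 3275) against 1434 CPM (1338 to 1536). Cd248, Sema3c, Cd55 and Opcml had ratios between 6.83 and 8.77 but 1 barcode held over 20% of their counts.

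**Figure D2:**
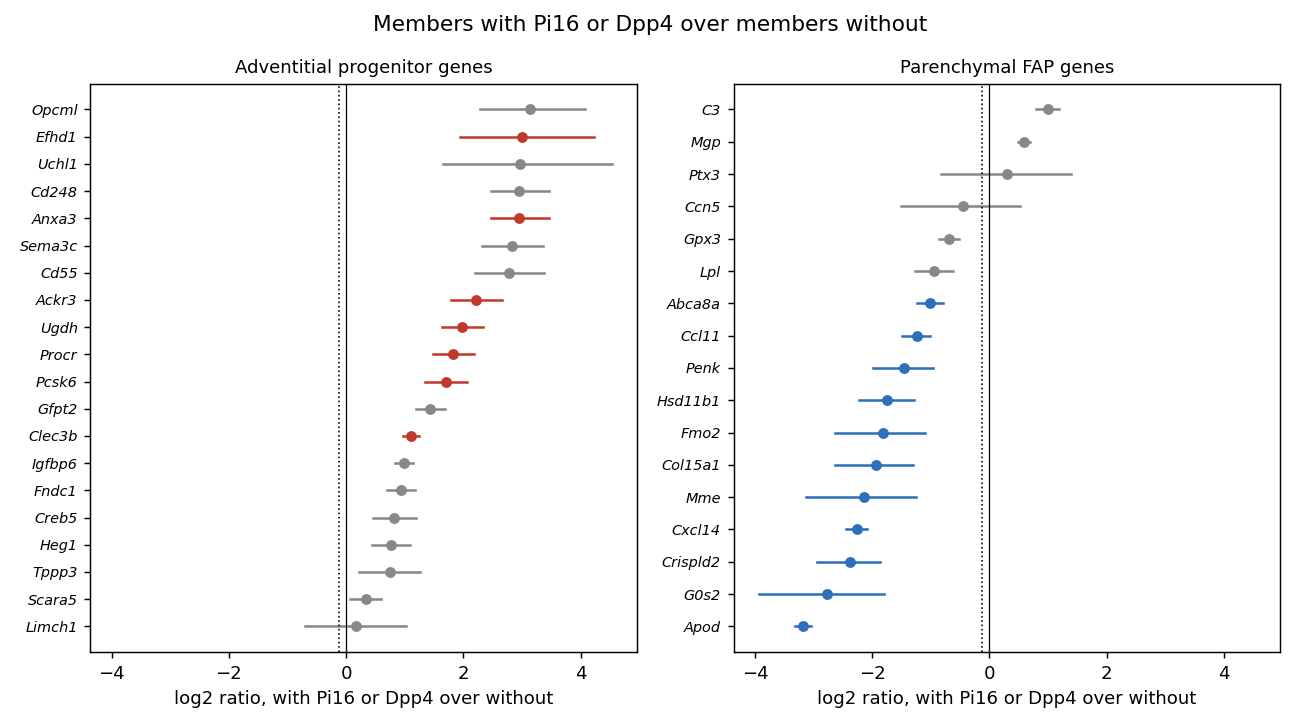
Log2 ratio of members with Pi16 or Dpp4 over members without, for measured genes of the adventitial list (left, the pair left out) and the parenchymal list (right), with exact 95% intervals. Red and blue genes passed the rule upward and downward, grey genes did not, and the dotted line is the median of all measured genes at -0.13; the adventitial genes lie right of 0 and most parenchymal genes left of it.

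Matrix genes outside that list also differed. Pcolce2, an enhancer of procollagen cleavage, was found in 29 of 39 members with the pair and 27 of 112 without, at 632 CPM (547 to 725) and 90.9 CPM (67.9 to 119). Of 13 elastic fibre genes 3 passed upward and none downward, with a list median of 1.14, and 2 of the 3 with at least 100 counts. Mfap5, a microfibril glycoprotein, stood at 2823 CPM (2641 to 3014) against 698 CPM (631 to 769.8), and Efemp1, a fibulin, at 493 CPM (418 to 576) against 114 CPM (87.7 to 145). Emilin2 was the last of them at 164 CPM (123 to 215) against 61.2 CPM (42.6 to 85.1). When the contrast was drawn on Dpp4 alone, the median of the elastic fibre list was -0.24. Sfrp4, a secreted Wnt inhibitor, had 33 counts in 15 barcodes with the pair and 3 counts in 1 barcode without. Fibrillar collagens had a list median of 0.59 with none past the rule, and the median was -0.07 without the deepest member, a barcode of 37819 UMIs, and -0.80 for the contrast drawn on Dpp4 alone. Igfbp5 stood at 1036 CPM (927 to 1154) against 54.2 CPM (36.8 to 77.0), but 1 barcode held 23.5% of its counts with the pair. Fst stood at 237 CPM (186 to 297) against 75.2 CPM (54.4 to 101), and Twist1, a mesenchymal transcription factor, at 94.7 CPM (63.9 to 135) against 40.2 CPM (25.5 to 60.4). Both had under 100 counts and did not pass among members with a ribosomal share of at least 2%.

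Genes of parenchymal fibroblasts ran the other way. Their list, too, was chosen with earlier results of these data known. Of 17 measured genes 11 were lower in members with the pair and none higher, with a median log2 ratio of -1.46. Of the 11, 10 had at least 100 counts in members without the pair. Apod, a lipid-binding lipocalin, stood at 1582 CPM (1446 to 1727) with the pair and 14356 CPM (14047 to 14669.8) without, and its medians per barcode were 364 and 3779 CPM. Cxcl14 was found in 9 of 39 members with the pair and 64 of 112 without, at 871 CPM (772 to 981) and 4191 CPM (4024 to 4362). Its medians per barcode were 0 and 388 CPM. Among members with a ribosomal share of at least 2%, 1 barcode held 67.4% of its counts with the pair. Crispld2 stood at 107 CPM (74.3 to 150.0) against 559.7 CPM (500.0 to 624). Hsd11b1, which regenerates active glucocorticoid, stood at 148 CPM (109 to 197) against 497 CPM (441 to 558). Mme, the peptidase neprilysin, stood at 37.9 CPM (19.6 to 66.2) against 166 CPM (134 to 203), and the chemokine Ccl11, which draws eosinophils, at 562 CPM (483 to 651) against 1331 CPM (1238 to 1429). C3 and Mgp, also on the list, had ratios of 1.99 and 1.5 and did not pass.

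The highest ratios beyond these lists belonged to genes of low counts. Tmem100, a membrane protein, had 68 counts in 21 members with the pair and 9 counts in 7 without. Dbn1, which binds actin, had 62 counts in 26 members with the pair and 21 counts in 15 without. Among the lowest, Spon1, a secreted adhesion protein, had 8 counts in 7 members with the pair and 155 counts in 50 without. Gli2, a transcription factor of the hedgehog pathway, had 2 counts in 2 members with the pair and 40 counts in 24 without, and did not pass among members with a ribosomal share of at least 2%.

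The promoters of Pi16, which drew the contrast, and of Cxcl14, lower on its positive side, are shown from RefSeq on build GRCm38.p6, 250 bases before to 50 after the start. The deposited counts used build GRCm39. Capitals mark matches to GGGCGG on either strand.
Pi16, chr17:29318632-29318931, plus strand: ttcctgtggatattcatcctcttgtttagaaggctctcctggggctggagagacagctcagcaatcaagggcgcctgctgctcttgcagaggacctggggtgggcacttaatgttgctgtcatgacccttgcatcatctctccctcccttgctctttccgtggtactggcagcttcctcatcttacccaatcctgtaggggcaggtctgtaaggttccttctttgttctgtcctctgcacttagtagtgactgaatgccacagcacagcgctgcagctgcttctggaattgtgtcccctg
Cxcl14, chr13:56296502-56296801, minus strand: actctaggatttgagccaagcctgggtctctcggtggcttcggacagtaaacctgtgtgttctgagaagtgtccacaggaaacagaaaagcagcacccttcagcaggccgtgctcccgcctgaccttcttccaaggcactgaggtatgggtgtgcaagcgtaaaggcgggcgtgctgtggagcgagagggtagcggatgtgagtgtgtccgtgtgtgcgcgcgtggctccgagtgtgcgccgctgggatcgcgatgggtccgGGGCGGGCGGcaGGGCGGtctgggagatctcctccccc
Cxcl14 held 3 matches, of which the first and second overlap, and Pi16 none. Of 32851 such windows 35.7% held GGGCGG. Neither window held TATAAA, found in 13.6% of windows, or TGANTCA, found in 7.81%, on either strand, while the window of Dpp4, not printed, held 1 TATAAA and none of the others.

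Among basement membrane genes every call was downward. Of 14 genes 4 passed downward, each with at least 100 counts, and none upward. The list median was -0.21, against -0.13 over all genes, and -0.44 against 0.01 among members with a ribosomal share of at least 2%. Col4a1 stood at 839.9 CPM (742 to 947) with the pair and 1845 CPM (1736 to 1960.0) without, and Col15a1 at 72.6 CPM (46.0 to 109) against 278 CPM (237 to 325). Col4a2 and Smoc2 were the others, with ratios of 0.407 and 0.313. Among ligands Bmp4 stood at 41.0 CPM (21.9 to 70.2) against 206 CPM (171 to 247) and Bmp5 at 31.6 CPM (15.1 to 58.1) against 171 CPM (139 to 209). Lifr, the receptor of leukaemia inhibitory factor, stood at 152 CPM (112 to 201) against 489.7 CPM (434 to 551). Igfbp3 stood at 126 CPM (90.2 to 172) against 570.2 CPM (510.0 to 636). Of 10 measured adipogenic genes 2 were lower, Plin2, a lipid droplet protein, with 22.1 CPM (8.89 to 45.5) against 124 CPM (97.0 to 157), and Cd36. Neither had 100 counts, and Cd36 did not pass among members with a ribosomal share of at least 2%. Of 15 glucocorticoid response genes 5 were lower with the pair, Fkbp5 with 253 CPM (200.3 to 314) against 595 CPM (533 to 661), all 5 with at least 100 counts, but 1 of 15 passed among members with a ribosomal share of at least 2%. Of 22 immediate early and dissociation stress genes 1 was higher and 3 lower, the same at 100 counts, and 0 and 5 at that ribosomal share.

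None of 10 measured cathepsins passed between the subsets, and Ctsl stood at 1263 CPM (1142 to 1393) with the pair and 923 CPM (846 to 1006) without, a ratio of 1.37 (1.20 to 1.56). Medians per barcode were 1298 and 627 CPM. Members with a ribosomal share under 2%, lower in Ctsl as given below, were 7 of 39 with the pair and 38 of 112 without. Their part in this difference was not tested. Of 4 measured cathepsin inhibitors 2 were lower, both with at least 100 counts, Cst3 with 2545 CPM (2372 to 2727) against 5161 CPM (4977 to 5351) and the serpin Serpina3n with 117 CPM (82.3 to 161) against 239.6 CPM (201 to 283).

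**Figure D3:**
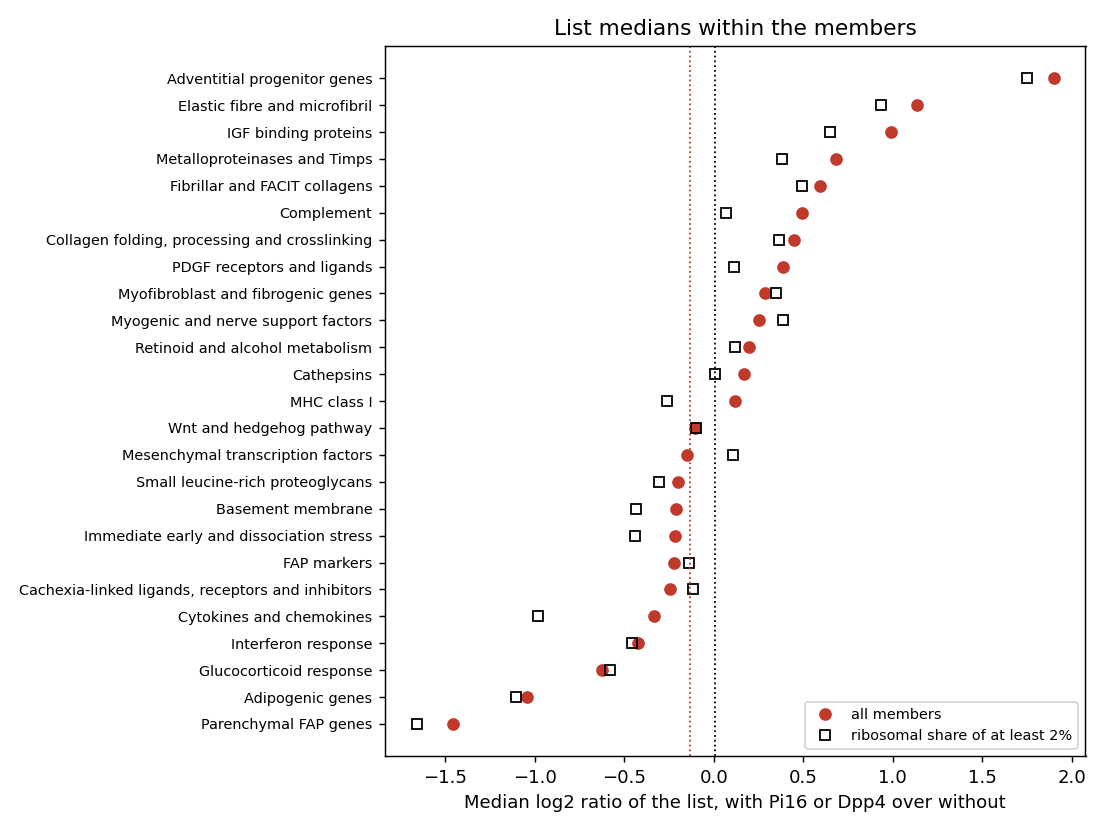
Median log2 ratio of each list with at least 5 measured genes, markers of other cell types left out, members with Pi16 or Dpp4 over members without, for all members and for those with a ribosomal share of at least 2%. Dotted lines are the medians of all measured genes (-0.13 and 0.01); the adventitial list, which here includes Pi16 and Dpp4, lies highest and the parenchymal list lowest in both.

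A low share of ribosomal protein transcripts set some members apart. In 45 of 151 members (29.8%) these genes took under 2% of UMIs, 7 of 39 with the pair and 38 of 112 without. Against the other members, 725 genes were higher in them (8.24%) and 1260 lower (14.3%). Their Malat1, a nuclear RNA, had a median of 22868 CPM, against 3381 CPM in the other 106 members. Ctsl stood at 267 CPM in them and 1253 CPM in the others. This split was chosen after the values were seen. Of the 346 genes lower with the pair, 148 (42.8%) were also higher in low-ribosomal members, against 4 of the 93 higher genes (4.30%). In the other 106 members alone 76 genes were higher (0.977%) and 117 lower (1.5%). Of the 93 higher genes 52 were called there too and all 93 kept their sign. Of the 346 lower genes 85 were called there and 330 kept their sign. These 106 are part of the 151 and hold 32 of the 39 with the pair, so kept signs are no separate evidence. The 93 include Pi16 and Dpp4, which drew the split. The adventitial and parenchymal lists kept medians of 1.53, the pair left out, and -1.66.

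**Figure D4:**
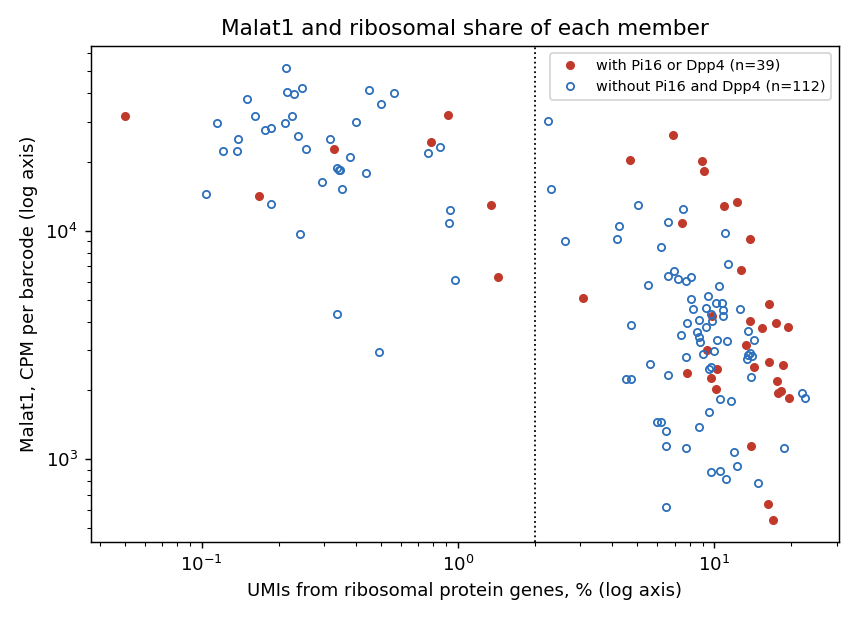
Malat1 in CPM against the percentage of UMIs from ribosomal protein genes for each of 151 members, both on log axes, with members with Pi16 or Dpp4 filled. The dotted line marks 2%; the 45 members left of it had a median Malat1 of 22868 CPM.

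Clustering of the members gave 6 clusters, described by their leading genes and not tested, since those genes formed them. Cluster 1 (38 barcodes, 2 with the pair) led with Apod at 30058 CPM against 3590 CPM in the other members, and with Col15a1, Cxcl14, Hsd11b1 and Crispld2. Cluster 3 (28 barcodes) led with the opioid precursor Penk at 682 CPM against 203 CPM, Inmt and the chemokine Cxcl12. Cluster 5 (18 barcodes) held 16 with the pair and led, beside it, with Anxa3 at 1241 CPM against 97.2 CPM, Pcolce2 and Efemp1. Cluster 2 (30 barcodes) was nearly all low-ribosomal, 29 of 30, and led with Kcnt2 and Lrba. In cluster 2 Ctsl was 112 CPM, against 577 to 1618 CPM in the other clusters.

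Cluster 4 (20 barcodes) led with the metallothionein Mt2 at 5056 CPM against 551 CPM and with Mt1 and Myc. It held Il6 at 248 CPM in 6 barcodes, the monocyte attractant Ccl2 at 565 CPM in 8 and the neutrophil attractant Cxcl1 at 1851 CPM in 14. Ctsl stood at 1618 CPM (1406 to 1853) in this cluster, an interval that overlapped those of cluster 5 at 1508 CPM (1302 to 1737) and cluster 3 at 1288 CPM (1093 to 1508). Glucocorticoid response genes summed to 29154 CPM there, against 11148 CPM over all members. Without Mt1 and Mt2, which are on that list, the sums were 3237 CPM and 4933 CPM. Immediate early and dissociation stress genes summed to 23617 CPM against 13561 CPM. Cluster 6 (17 barcodes, 7 with the pair) led with the actin-binding protein Palld and the transcription factor Runx1 and held collagen at its highest, Col1a1 at 13112 CPM and Col3a1 at 9821 CPM. Its Postn, a matricellular protein of remodelling tissue, stood at 6332 CPM in 14 barcodes, against at most 279 CPM in the other clusters. Acta2, the smooth muscle actin of myofibroblasts, stood at 10.7 CPM there. Gsn at 2741 CPM and Pdgfra at 289 CPM were lower there than in any other cluster. The others ran from 7693 to 42778 CPM and from 440 to 793 CPM. Dcn stood at 5365 CPM in 13 of the 17 barcodes, above only cluster 2 at 4881 CPM. Lum was at its highest, 1293 CPM. Tendon cell markers summed to 5947 CPM in cluster 6, of which Thbs4 made 5520 CPM, while Tnmd was in 1 of its barcodes. Of cluster 6, 7 of 17 barcodes were low-ribosomal, and the part of that share and of tendon cells in these values was not tested.

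**Figure D5:**
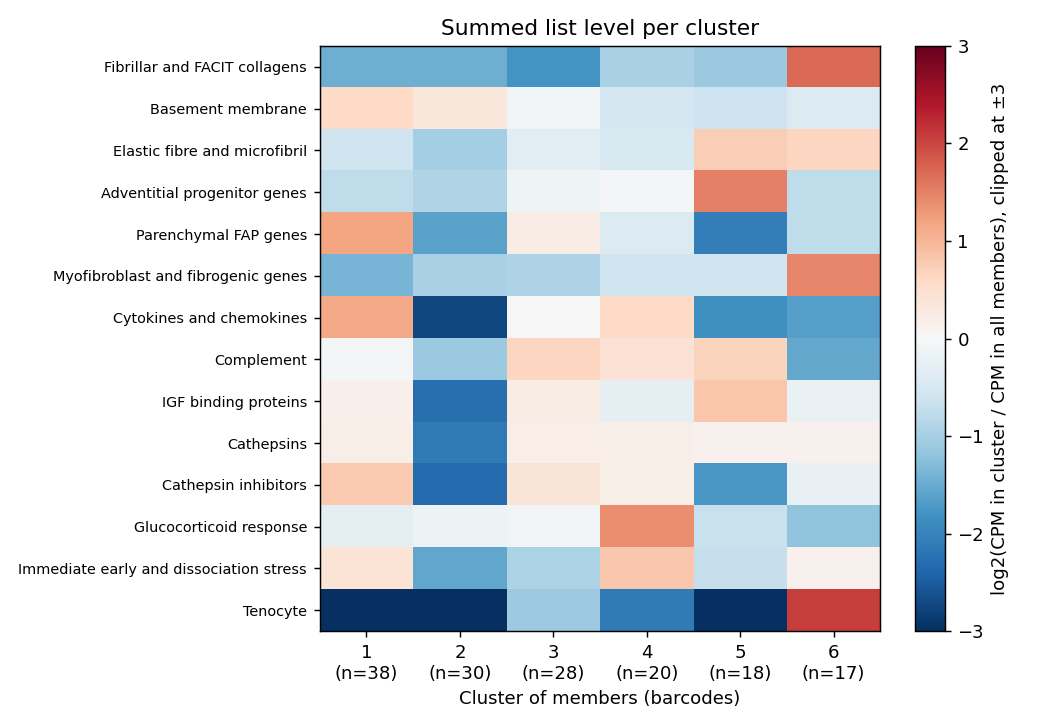
Log2 ratio of the summed CPM of 14 gene lists in each of 6 clusters over all members, clipped at 3 either way; red is higher and blue lower. Cluster 5 is highest for adventitial genes, cluster 1 for parenchymal genes and cluster 6 for collagens and tendon cell markers.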

How the data were processed

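Single cells of gastrocnemius muscle and lung were profiled with 5' chemistry, 1 library per tissue. The deposited matrices hold counts of UMIs per gene and barcode. Per the submitters' processing notes they were made with Cell Ranger 7.0.1 on GRCm39. Muscle held 14056163 UMIs over 5547 barcodes and lung 34751225 over 8481. Features of the same symbol were summed.

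Barcodes were kept and members chosen by the limits given above. The members and gene lists were chosen with earlier results of these data known. Counts were summed over barcodes and given as CPM with exact Poisson intervals, ratios with exact conditional binomial intervals and shares with Clopper-Pearson intervals, all at 95% and for counting error only. With 1 library there were no p-values, since cells are not replicates. A gene was measured with at least 10 counts over both sides. Doublets were not removed, and their removal was an alternative. On simulated counts the comparison of members with and without Pi16 or Dpp4 also called unchanged genes, mostly as lower, at a minimum of 30 counts. The simulation gave hardly any such calls at 100, so the text also says what held at 100. Its settings had no gene changed, or some genes changed with the totals either shifted or kept, and are not told apart here. Where the totals shifted, the CPM ratio of unchanged genes moved as well. The simulated counts were Poisson, with a rate per gene shared by all barcodes of a side. Variation between barcodes beyond depth and counting error was therefore not covered, at 100 counts as well. Genes were named from a pool, not all of which appears in the text. It held the markers, the 15 genes of highest ratio per contrast and direction, Ctsl and Cd274. From each list it held up to 4 members of highest counts and all past the rule. Genes named beyond these, the cluster genes among them, were chosen after their values were seen. Clusters came from scanpy 1.11.5, and intervals from scipy 1.17.1 in Python 3.11.15.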

Additional observations from a re-analysis of the deposited data

Results flagged for a closer look

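Of 2222 muscle barcodes over the mitochondrial limit, which no comparison used, 26 met the count terms for members (1.17%, 0.766 to 1.71). By the limit of 3 counts, a count of 0 would allow up to 0.135%. Their median depth was 2363 UMIs with a median mitochondrial share of 13.7%, and 9 of the 26 held Pi16 or Dpp4. Ctsl had 42 counts in them, 568 CPM (409.5 to 768).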

How the results depend on the processing

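The share of members, 6.73%, was 9.64% and 5.01% at mitochondrial limits of 5% and 20%, 8.45% with at least 2000 UMIs and 11.4% with no Pdgfra term. The share with Pi16 or Dpp4, 25.8%, was 15.9% after thinning and 15.9% for Dpp4 alone. Ctsl, 1045 CPM in members, was 1132 CPM with totals without mitochondrial genes and Rn18s, 1253 CPM in members with a ribosomal share of at least 2% and 965 CPM with no Pdgfra term. Genes higher than in the rest numbered 586 with no minimum, 220 at 100 counts and 220 with median-of-ratios size factors as well. Genes higher with Pi16 or Dpp4 numbered 151 at 10 counts, 172 with no minimum, 32 at 100 counts and 46 with those factors as well. Genes lower numbered 117 at a ribosomal share of at least 2%, 100 at 100 counts and 80 with those factors as well. Over 84 genes followed, not all of them named in the text, 4 of 1510 log2 ratios changed sign. Gdf10 moved to 0.0064 at the 20% mitochondrial limit and Fgf7 to 0.59 at the ribosomal share of 2%. With no Pdgfra term Mustn1 moved to -0.29 and Prelp to 0.65. The cause was not tested. Of 522 list medians, 26 moved by over 0.5. The ribosomal, Pdgfra, deepest-member and 100-count alternatives were chosen after seeing the data. Depth limits genes under about 30 counts. No paired analysis was possible because each tissue had 1 library.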

Other observations

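Sbsn, Dmkn and Krtdap, secreted proteins best known from skin, were found in cluster 5 and were chosen after their values were seen. Sbsn stood at 628 CPM in 7 barcodes of cluster 5, against 25.9 CPM in 3 barcodes of cluster 2 and no count in the other clusters. Dmkn stood at 236 CPM in 5 barcodes of cluster 5 and Krtdap at 369 CPM in 4. RefSeq lists the 3 as consecutive protein-coding genes on mouse chromosome 7.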
